A study of Mus musculus with 6 samples.

Results

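The genes described here are 7 integrin subunits of leukocytes (Itgal, Itgam, Itgax, Itgad, Itgb2, Itga4 and Itgb7) and 3 of their ligands on other cells (Icam1, Icam2 and Vcam1). They were chosen by gene symbol, and all 10 were found among the 33924 genes of the authors' deposited table. The study sequenced poly(A)-selected RNA from RPE/choroid, the retinal pigment epithelium with the vascular layer beneath it, of C57BL/6J mice, 3 young and 3 aged, and each sample combined the 2 eyes of 1 mouse. The sample titles give ages of 1 to 2 months for young mice and 20 to 24 months for aged mice, whereas the age field gives 22 to 24 months for the aged mice. The paper's text gives 2 to 3 months for the young mice. The labels describe all mice as male, while the paper's methods name both sexes. The table holds 1 usable measurement per gene, the authors' mean normalized count over the libraries of both age groups. It holds no value for a single mouse, so no SD could be computed, no level could be given for young or aged mice separately, and the age groups were not compared here. The other columns hold the authors' own comparison of the age groups and were not used. Differences between genes below are therefore descriptions of 1 pooled mean each, with no replicate error and no test.

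Integrins are pairs of an alpha and a beta chain that bind ligands on other cells or in the matrix. The CD18 chain, encoded by Itgb2, pairs with CD11a (Itgal) to form LFA-1, with CD11b (Itgam) to form Mac-1, with CD11c (Itgax) and with CD11d (Itgad). LFA-1 binds Icam1 and Icam2, and Mac-1 binds Icam1, complement fragments and fibrinogen. The alpha4 chain (Itga4) pairs with Itgb1 to form VLA-4, which binds Vcam1 and fibronectin, or with Itgb7 to form a receptor for Madcam1. In the eye these molecules are known for holding and moving leukocytes at the wall of vessels, and CD11b and CD11c are in wide use as surface markers of myeloid cells.

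The genes of the 4 CD18 partners lie on the plus strand of chromosome 7 in GRCm38. Itgal spans 127296260 to 127335138 and stands apart from the other 3, which follow each other as Itgam (128062640 to 128118491), Itgax (128129547 to 128150657) and Itgad (128154376 to 128223816). Itgb2 lies on chromosome 10 from 77530252 to 77565708 on the plus strand, Itga4 on chromosome 2 from 79255426 to 79333123 on the plus strand and Itgb7 on chromosome 15 from 102215995 to 102231944 on the minus strand. Icam1 lies on chromosome 9 from 21015985 to 21028817 on the plus strand, Icam2 on chromosome 11 from 106377656 to 106388075 on the minus strand and Vcam1 on chromosome 3 from 116109949 to 116129688 on the minus strand.

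Itgax and Itgad were the closest pair among the CD18 partners, with 69.5% of aligned positions identical in their coding sequences, against 64.2% for Itgam and Itgax, 62.3% for Itgam and Itgad and 51.3% to 53.1% for Itgal with the other 3. The identity of Itgax and Itgad was not spread evenly. Their longest transcripts shared 6 stretches of at least 50 identical bases, of which 5 lay next to each other. The longest was a run of 188 coding bases, at chr7:128135612-128136062 in exons 11 to 13 of Itgax and at chr7:128189340-128189789 in exons 12 to 14 of Itgad, both on the plus strand with the introns left out. It is shown because read pairs that lie wholly within it cannot be told apart by their bases. For the other 5 pairs of CD18 partners the longest run in common was between 13 and 17 bases.
Itgax and Itgad: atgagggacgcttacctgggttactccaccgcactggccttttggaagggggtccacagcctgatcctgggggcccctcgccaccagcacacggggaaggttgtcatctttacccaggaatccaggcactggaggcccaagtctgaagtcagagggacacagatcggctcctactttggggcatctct

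**Figure D1:**
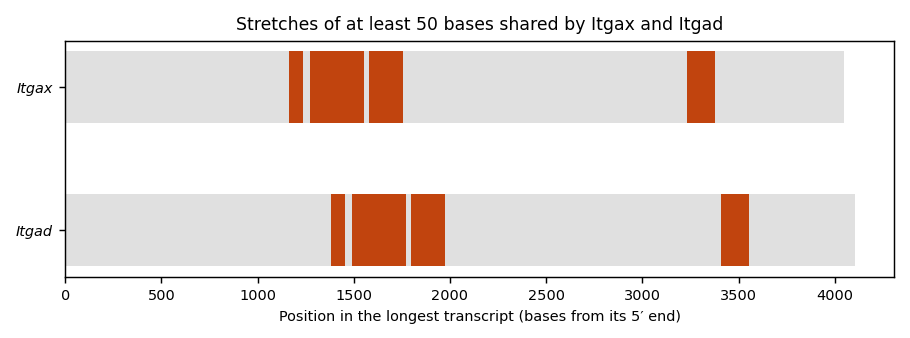
Position along the longest transcript of Itgax (4046 bases) and Itgad (4105 bases), counted in bases from the 5′ end. Filled parts are the 6 stretches of at least 50 identical bases, from 68 to 188 bases long, 5 of which sit side by side in the middle part of both transcripts.

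Itgad, the CD11d chain, was the lowest of the 10 genes, at a mean normalized count of 22.3. Itgax, the CD11c chain, had a mean normalized count of 1441, so that Itgax was 65.5 times Itgad per kilobase of longest transcript. Of the words of 50 bases in the longest Itgax transcript, 384 of 3997 (9.61%) also occurred in Itgad. If the Itgax count were spread evenly over its transcript, that share would correspond to a mean normalized count of 138. The paper describes paired reads longer than these words. Fewer reads would therefore lie wholly within shared stretches than this share implies, and no estimate was made for the read length used. How the authors' quantification divided such reads between the genes was not tested, so the level of Itgad is uncertain. A second neighbour adds to this. The muscle cytochrome oxidase subunit gene Cox6a2, on the opposite strand, has 70 exon bases in common with Itgad, and it had a mean normalized count of 738, which is 33.1 times that of Itgad. The library kit keeps the strand, and whether the counting used it is not given in the sources used here.

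Itgam, the CD11b chain, had a mean normalized count of 1387. In the GENCODE annotation 72.4% of the 50-base words in its longest transcript also belong to Gm49368, an overlapping protein-coding model on the same strand that has no line in the deposited table. Itgal, Itgb7, Icam1 and Icam2 shared no word of 50 bases with another gene. Vcam1, Itga4 and Itgb2 had 99.7%, 99.9% and 98.8% of their words to themselves. The longest annotated Vcam1 transcript, on which its value was taken, has 1 exon, and its spliced transcripts were not examined separately. Itga4 also has 1124 exon bases in common with Cerkl on the opposite strand, which had a mean normalized count of 124 against 601 for Itga4.

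Promoter sequence from RefSeq (GRCm38.p6) was matched for 5 of the 10 genes, as windows of 250 bases before to 50 bases after the RefSeq start. The windows of Itgam and Itgax are shown because these neighbouring genes had nearly the same level, and that of Icam1 because it was the only one of the 5 windows with a Rel-type match. Capitals mark the letters GAGGAA, the core bound by the myeloid factor PU.1, GGAANTTCC, a form of the site of NF-kappaB (Rel) factors, and TATAAA, searched on both strands with no overlap between the matches. These letters occur in 28.3%, 0.928% and 13.6% of the 32851 promoter windows of the RefSeq table.
Itgam chr7:128062390-128062689, plus strand: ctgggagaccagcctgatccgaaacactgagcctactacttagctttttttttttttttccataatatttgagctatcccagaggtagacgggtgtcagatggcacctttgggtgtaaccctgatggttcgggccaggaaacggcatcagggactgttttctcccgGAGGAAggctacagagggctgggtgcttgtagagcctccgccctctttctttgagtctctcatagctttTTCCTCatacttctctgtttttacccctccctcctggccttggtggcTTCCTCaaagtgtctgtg
Itgax chr7:128129300-128129599, plus strand: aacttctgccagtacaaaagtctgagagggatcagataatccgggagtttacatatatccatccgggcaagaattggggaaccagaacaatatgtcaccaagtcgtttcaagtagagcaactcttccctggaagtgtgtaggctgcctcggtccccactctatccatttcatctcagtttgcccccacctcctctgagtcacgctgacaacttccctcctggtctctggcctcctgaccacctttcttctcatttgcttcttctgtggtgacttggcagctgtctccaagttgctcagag
Icam1 chr9:21015690-21015989, plus strand: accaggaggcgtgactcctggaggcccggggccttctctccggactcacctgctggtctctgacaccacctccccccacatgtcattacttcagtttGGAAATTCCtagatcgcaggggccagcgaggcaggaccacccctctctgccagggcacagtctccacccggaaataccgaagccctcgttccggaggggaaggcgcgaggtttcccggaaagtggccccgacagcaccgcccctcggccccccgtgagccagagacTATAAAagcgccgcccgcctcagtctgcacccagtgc

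The Itgam window held GAGGAA 3 times, 84 bases before the start on the same strand and on the opposite strand 15 bases before and 32 bases after it. The Itgax window held none of the 3 motifs. The Icam1 window held GGAANTTCC 153 bases before the RefSeq start and TATAAA 13 bases after it. The GENCODE start of Icam1 given above lies 45 bases further along, so TATAAA lies 32 bases before that start and GGAANTTCC 198 bases before it. The RefSeq and GENCODE starts of Itgam are the same base. Of the remaining matched windows, Itgb7 held GAGGAA once, 2 bases after the start, and Itga4 held no motif. A match describes letters in a window and not binding of a factor.

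Levels between genes were compared per kilobase of longest annotated transcript, and per kilobase of coding sequence beside it. The paper's methods name length-corrected TPM values as the start of the normalized counts, so a division by length may act a second time, and undivided mean normalized counts are given where they change an order. On the first scale the 3 ligands stood above all 7 integrin subunits. Icam2, which endothelium carries in the resting state, had a level of 1136 per kilobase (mean normalized count 1456). Vcam1, an adhesion molecule of activated endothelium and stromal cells, had 1112 per kilobase (mean normalized count 4544), and Icam1, an inducible ligand on endothelium, epithelium and leukocytes, had 955 per kilobase (mean normalized count 2421). These 3 values lay close together, and with coding length Vcam1 (2050) stood above Icam2 (1752) and Icam1 (1503). Undivided, Vcam1 and Icam1 stood above Itgb2 (2035), and Icam2 stood below it. Per kilobase of shortest protein-coding transcript, Itgb2 stood above both Icam1 and Icam2. Whether Icam1 and Icam2 exceeded Itgb2 thus turned on the scale. Vcam1 was the highest ligand on every scale except the longest transcript, where it was divided by a 4088-base transcript of 1 exon. Its place below Icam2 there rests on that annotated model.

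Among the CD18 receptors the shared chain Itgb2 had the highest level, 685 per kilobase (mean normalized count 2035). Itgax followed with 356 per kilobase and Itgam with 296 per kilobase, and per kilobase of coding sequence they were 411 and 396. Itgal, the LFA-1 chain of lymphocytes and other leukocytes, had 33.4 per kilobase (mean normalized count 175), and Itgad had 5.43 per kilobase. Of the summed level of the 4 alpha chains, Itgax made up 51.5%, Itgam 42.9%, Itgal 4.84% and Itgad 0.786%. The 4 alpha chains added up to 691 per kilobase, which is 1.01 times the level of Itgb2, their common partner. With coding length the same ratio was 0.978, and with undivided counts it was 1.49. Itgam was 8.86 times Itgal per kilobase, and 8.18 times with coding length.

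Itgb7 had a level of 181 per kilobase (mean normalized count 486), above its alpha partners Itga4, with 61.5 per kilobase, and Itgae, the CD103 chain that binds E-cadherin, with 20.8 per kilobase. Together these alpha chains came to 0.455 times Itgb7. This order rested on the length used, because the longest Itga4 transcript has 9767 bases and its coding sequence 3096. With coding length Itga4 (194) and Itgb7 (201) were nearly level, and the ratio of both alpha chains to Itgb7 was 1.08. Undivided, Itga4 stood above Itgb7, and that ratio was 1.40. The other beta partner of Itga4, Itgb1, had 4982 per kilobase, 27.5 times Itgb7 and 81.0 times Itga4. With coding length these ratios were 39.5 and 40.9, so Itgb1 lay far above both chains on either scale.

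**Figure D2:**
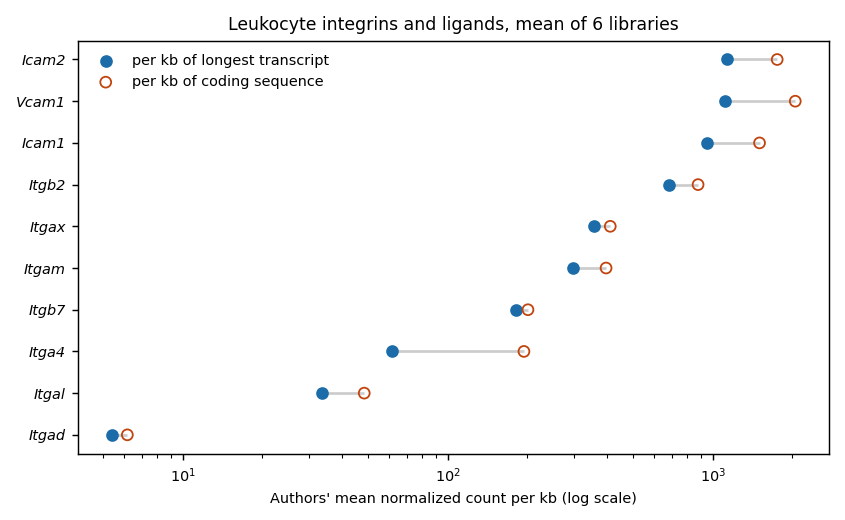
Authors' mean normalized count per kilobase (horizontal log axis) for each of the 10 genes, as a mean over 6 libraries of both age groups with no error available. Filled points use the longest transcript and open points the coding sequence; the 3 ligands lie highest, Itgad lies lowest at 5.43, and Itga4 moves most between the scales.

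Against all genes, the leukocyte integrins and their ligands ranged from low to high abundance. Among the 18479 genes whose mean normalized count reached 10, Vcam1 stood at percentile 89.9 by mean normalized count, Icam1 at 79.6, Itgb2 at 75.8, Icam2 at 68.1, Itgax at 67.8 and Itgam at 66.8. Itga4 stood at percentile 47.8, Itgb7 at 43.8, Itgal at 28.6 and Itgad at 7.48. All 10 genes passed the minimum of 10, and 6 of them lay above the median of all such genes, which was 668. Per kilobase of longest transcript the 10 genes had a median of 326, against 215 for the 16442 genes with a length. The 10 genes together made up 0.0357% of the table's summed means.

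Other ligands of these receptors covered a wide range. Madcam1, the ligand of the Itga4 and Itgb7 pair in gut vessels, had a mean normalized count of 12.1, and with 8.40 per kilobase it lay far below Vcam1, which was 132 times Madcam1. Icam4, an erythroid ligand, was listed at 0, and Icam5, a ligand of neurons, had 5.43 per kilobase. Cdh1, the E-cadherin ligand of Itgae, had 508 per kilobase, and the junctional ligand F11r, bound by LFA-1, had 746 per kilobase. Spp1 (osteopontin), bound by Itga4 and Itga9 receptors, was the highest of the 9 other ligands with 12081 per kilobase. Of these 9 genes, 8 reached a mean normalized count of 10, and their median was 526 per kilobase.

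Within the whole integrin family of 18 alpha and 8 beta subunits, the leukocyte chains were spread from the upper part to nearly the bottom. Per kilobase of longest transcript Itgb2 stood 4th among the beta chains, below Itgb1 (4982), Itgb8 (4586) and Itgb5 (3109), and Itgb7 followed it. Itgax and Itgam were 5th and 6th of the 18 alpha chains, next to Itga9 (382) and Itga3 (278). Itga4 was 11th, Itgal 14th and Itgad 17th, with Itga2 (5.01) below it. In undivided counts the places of Itgb2, Itgb7, Itgax and Itgam were the same, Itga4 was 9th, Itgal 13th and Itgad last. Undivided, Itgb8 (38535) stood above Itgb1 (19006). With coding length Itga3 (422) passed Itgax (411) and Itgam (396), and Itgad (6.19) fell below Itga2 (10.1) to the last place. On that scale Itga4 (194) passed Itga10 (88.8) and Itga2b (78.0), and Itgb8 (16747) passed Itgb1 (7939).

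**Figure D3:**
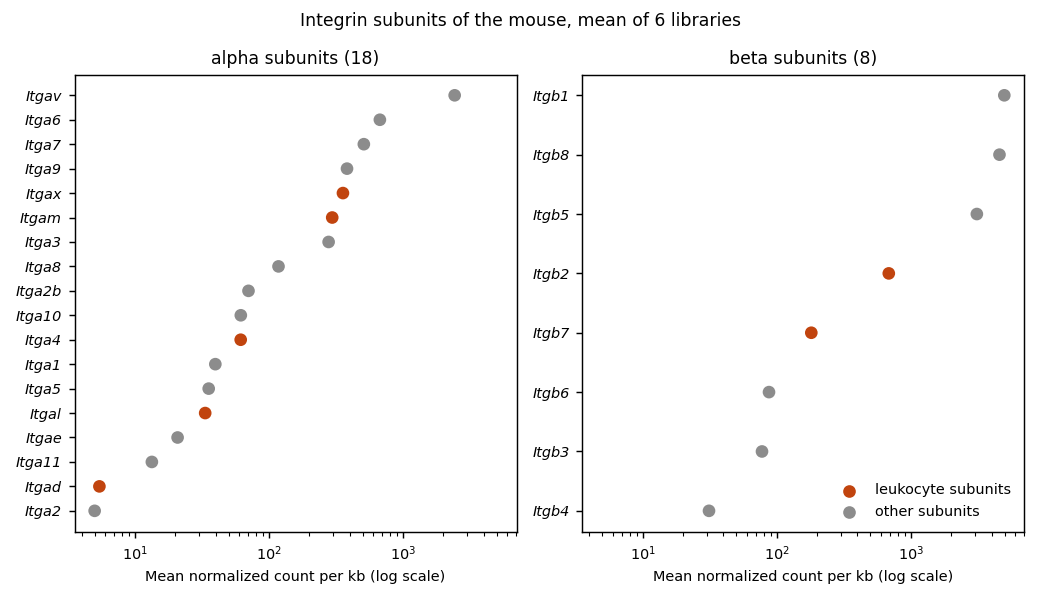
Authors' mean normalized count per kilobase of longest transcript (horizontal log axis) of 18 alpha and 8 beta integrin subunits, as means over 6 libraries. Leukocyte chains are coloured; Itgb2 at 685 and Itgax at 356 stand in the upper part, and Itgad at 5.43 near the bottom.

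Leukocyte integrins need cytoplasmic proteins to bind their ligands. Fermt3 (kindlin-3), the form in blood cells, had 254 per kilobase, so that Itgb2 was 2.70 times Fermt3. Its relative in other tissues, Fermt2, had 1038 per kilobase. Talin (Tln1), which binds the tail of beta chains, had 653 per kilobase, and the GTPase Rap1b, with 2420, was the highest of the 11 genes of this list. Apbb1ip, an adaptor between Rap1 and talin, was the lowest with 16.1 per kilobase, but undivided Skap1 (60.5) stood below Apbb1ip (65.4). All 11 genes reached a mean normalized count of 10, with a median of 254 per kilobase.

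The markers of cells that carry these receptors were present at unequal levels. The pan-leukocyte gene Ptprc (CD45) had 463 per kilobase, and Itgb2 was 1.48 times Ptprc on this scale but 0.765 times in undivided counts and 0.873 times per kilobase of shortest protein-coding transcript, so their order turned with the scale. The 6 macrophage markers lay between 299 (Cx3cr1) and 2493 (Cd68) per kilobase with a median of 1178, close to the level of the 3 ligands. Their undivided median of 2908 lay between Icam1 and Vcam1. The median was 28.6 per kilobase for 5 T cell markers, with Cd3e at a mean normalized count of 2.40, 39.0 for 4 B cell markers, 32.9 for 4 dendritic cell markers and 469 for 4 mast cell markers. The 3 NK cell markers lay between 6.65 (Ncr1) and 92.9 (Nkg7) per kilobase. Granulocyte genes were split, with S100a9 at 866 and S100a8 at 719 per kilobase, Csf3r at 58.1, Elane at a mean normalized count of 0.676 and Mpo listed at 0. S100a9 and S100a8 have short transcripts, and undivided they lay nearer to Csf3r, at 450 and 358 against 202. Which of these cells the Itgax, Itgam or Itgb2 transcripts came from was not tested, and in a bulk sample more cells of a type cannot be told apart from more RNA per cell.

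Of the endothelial markers, Pecam1 had 915 and Cdh5 179 per kilobase, so that Icam2 was 1.24 times Pecam1 and 6.33 times Cdh5. Kdr (1244), Plvap (1909) and Emcn (2251), the highest of the list, stood above Icam2 (1136). In undivided counts Icam2 was 0.463 times Pecam1 and 2.03 times Cdh5. Per kilobase of shortest protein-coding transcript these ratios were 0.933 and 1.39. The order of Icam2 and Pecam1 thus turned with the scale, while Icam2 stood above Cdh5 and below Emcn on each scale computed. Undivided, every marker of this list except Cdh5 stood above Icam2. The 6 endothelial markers had a median of 1079 per kilobase, and of 4018 undivided. RPE markers were among the most abundant genes, with Rpe65 at 61154 per kilobase, 89.3 times Itgb2 and 56.0 times in undivided counts, although Best1 had only 39.3. The rod gene Sag had 9859 per kilobase, although the neural retina had been removed. Fibroblast and mural cell markers, from cells that can also carry Vcam1, lay between 798 (Pdgfra) and 11043 (Rgs5) per kilobase.

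**Figure D4:**
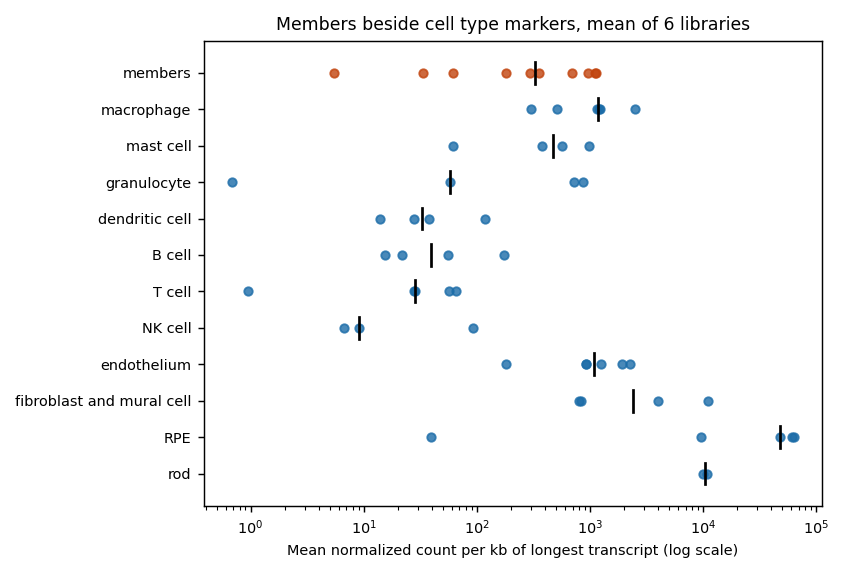
Authors' mean normalized count per kilobase of longest transcript (horizontal log axis) of the 10 genes and of markers of 11 cell types, as means over 6 libraries, with a vertical line at each list's median. The 10 genes, with a median of 326, reach up to the medians of macrophage (1178) and endothelial (1079) markers and lie below every RPE and rod marker drawn except Best1, at 39.3; Mpo, listed at 0, cannot be drawn.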

How the data were processed

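The authors sequenced poly(A)-selected libraries of RPE/choroid, 3 young and 3 aged. Per the paper's methods, they trimmed read pairs with BBDuk, mapped them to Ensembl GRCm38 transcripts with STAR, used Sailfish to obtain TPM, scaled these to normalized counts by total count and ran DESeq2. The labels describe a total RNA kit with removal of ribosomal RNA beside the molecule type of poly(A) RNA. The deposited signal is a mean normalized count that the authors took over all libraries, young and aged. The authors' remaining columns hold their fold change, its standard error, a Wald statistic and p-values of the age comparison, and none was used. The planned test between age groups needed values per library and was not run.

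The means add up to 40816668, and the depth of single libraries is unknown. Levels were divided by the longest transcript of GENCODE M21 (GRCm38) or by the longest coding sequence. Of the genes with a mean of at least 10, 89.0% had a length. As TPM is corrected for length, the deposited means may be too, in which case a division by length acts a second time. Over 14201 protein-coding genes the log2 level rose by 0.30 per doubling of length. Undivided levels are given for the members and for some, not all, of the other orders that they turn. Shared sequence was counted as identical words of 50 bases on the same strand. Coding sequences were aligned globally with Biopython. Older symbols were matched through RefSeq synonyms (Emr1 for Adgre1). One listed marker is not reported here. Members and gene lists were chosen with earlier results of these data known. The text names the 10 members, the extremes of some but not all lists and other chains that pair with a member. It also names further listed genes chosen after their values were seen. Python 3.11.15, numpy 2.4.6, pandas 2.3.3 and matplotlib 3.10.9 were used. Only the division by length and the percentile calculation were checked on simulated data.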

Additional observations from a re-analysis of the deposited data

How the results depend on the processing

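No paired analysis was possible because only a mean over all libraries was usable. For the age comparison, the other normalization, the filter on low counts, DESeq2 and leaving out replicates were for this reason not run. A value was taken as moved beyond 1.5 times. Division by the shortest protein-coding transcript, often an annotated short fragment, moved the median of the 10 genes from 326 to 1070 per kilobase, the ratio of the CD18 alpha chains to Itgb2 from 1.01 to 0.305 and that of Itga4 with Itgae to Itgb7 from 0.455 to 0.0607. The last ratio was 1.08 with coding length and 1.40 with no division by length, an alternative chosen after seeing the data. The other 6 changes to summary values stayed within 1.5 times, among them the median percentile of the 10 genes, which was 67.3 and moved to 76.3 over genes above 0 and 61.4 over genes with a mean of at least 50, and their share of 0.0357% of all counts, which became 0.0392% without mitochondrial genes and the 10 most abundant genes. Of the values of single genes, 13 moved and 26 did not. These counts leave out the percentile of Itgad over genes with a mean of at least 50, because its mean of 22.3 lies below that cut.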

Other observations

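Per kilobase of longest transcript, 4 other integrin chains (Itgb1, Itgb8, Itgb5 and Itgav) stood above Itgb2 in the pooled means, and the others stood below it. Undivided, Itga6, Itga9 (2681) and Itga7 (2049) also stood above Itgb2 (2035). With coding length Itga6 (884) stood just above Itgb2 (881). Itgav, the alphav chain, had 2426 per kilobase of longest transcript, 3.51 times the sum of the CD18 alpha chains, and 6.34 times that sum with coding length. Itgb8, a partner of Itgav, was 6.69 times Itgb2 per kilobase of longest transcript and 19.0 times with coding length, but 0.820 times per kilobase of shortest protein-coding transcript. Itgb5, a further partner of Itgav that RPE uses in the uptake of outer segments, had 3109 per kilobase. The laminin-binding chain Itga6 had 671 per kilobase, close to the 685 of Itgb2, and an undivided 2894 against 2035. Itgb4, the chain of hemidesmosomes that pairs with Itga6, had 31.3 per kilobase. These values are pooled over both age groups and have no replicate error.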
